A study of Homo sapiens with 9 samples.

Results

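Cells that stably express the long isoform of the bromodomain protein BRD1 (BRD1-L) were compared directly with cells that stably express the short isoform (BRD1-S), with no untreated array in the difference. The comparison used 2 of the 9 arrays of the series, 1 array a side, and all 18239 genes with a probe set of their own. Both lines were made in HEK293T, a human embryonic kidney line that carries the SV40 large T antigen, and both carry His6 and V5 tags on the introduced protein. Expression of either isoform was described in the labels as stable or episomal, and whether a line was 1 clone or a pool is not given in the sources used here. The other 7 arrays were 3 of HEK293T cells with small interfering RNA against BRD1, 3 with control siRNA and 1 of untreated cells, and they only gave the range beside each difference. The siRNA arrays form pairs named Qiagen, Dharmacon 1 and Dharmacon 2, and the labels call their controls mock where the study's methods name scrambled siRNA. With 1 array for each line no test was possible, and a difference between the lines cannot be told apart from a difference between the cultures that were grown and hybridised.

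BRD1, also called BRPF2, is a scaffold protein that reads chromatin through its bromodomain, PHD fingers and PWWP domain. It brings a MYST-family acetyltransferase, mainly KAT7 (MYST2), together with the small subunits MEAF6 and ING4 or ING5, and the complex acetylates lysines on histone H3. The long and short isoforms are splice forms of the same gene and are known to distribute differently within cells of the brain.

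The introduced gene was detected in both lines at nearly the same level. The probe set 11748646_a_at read 11.27 on the BRD1-L array and 11.11 on the BRD1-S array on the log2 intensity scale, against 5.35 at the lowest, 6.33 at the median and 6.56 at the highest of the other 7 arrays. Both lines were thus far above every other array on this probe set, and the 2 lines differed by 0.16 on the log2 scale. The probe set 11731092_a_at did not separate the lines from untreated cells, at 8.63 with BRD1-L, 8.72 with BRD1-S and 8.63 in untreated cells. The third, 11731093_s_at, gave 7.99 with BRD1-L, 7.97 with BRD1-S and 7.88 in untreated cells. Averaged over the 3 probe sets, BRD1 differed between the lines by 0.03 on the log2 scale. The probe sets were not placed on the isoforms, so no reading of either isoform alone was made.

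**Figure D1:**
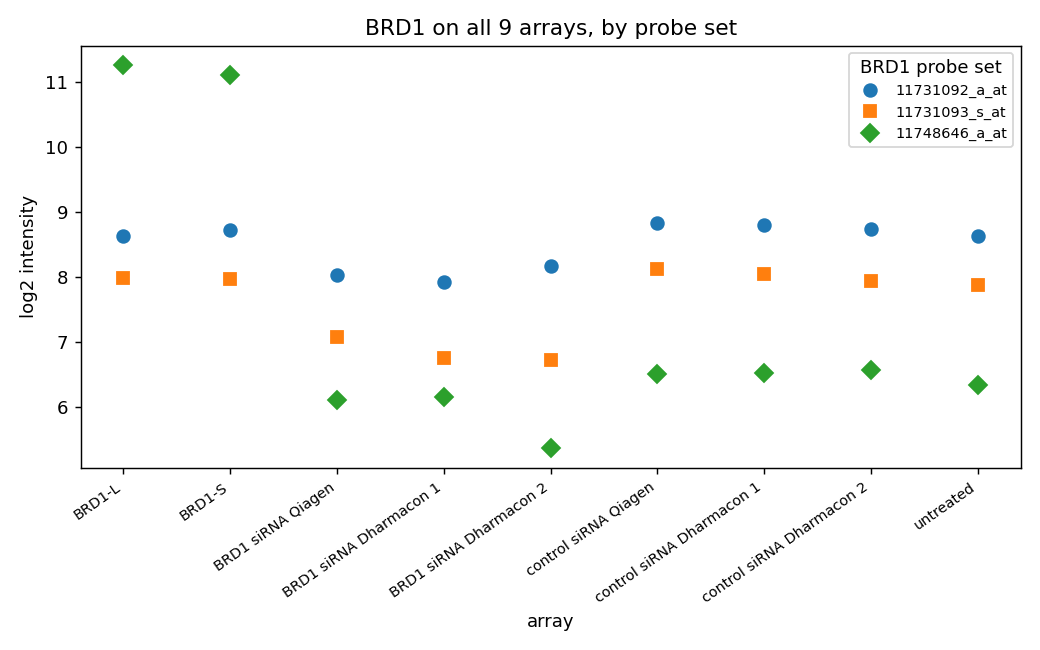
The log2 intensity of the 3 BRD1 probe sets is plotted for each of the 9 arrays, 1 symbol per probe set. Only 11748646_a_at sets the BRD1-L array (11.27) and the BRD1-S array (11.11) apart from the other 7, and the 3 arrays with siRNA against BRD1 have the lowest values of the other 2 probe sets.

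Of 18239 genes, 279 (1.53%) were higher and 248 (1.36%) lower by more than 1.5-fold in BRD1-L than in BRD1-S cells, taking the mean of a gene's probe sets. These 527 genes were 2.89% of those measured. More than 2-fold apart were 51 higher and 55 lower genes, and more than 4-fold apart were 6 higher and 5 lower. The median absolute difference over all genes was 0.10 and the 99th percentile 0.83 on the log2 scale. For comparison, the control siRNA arrays differed from each other by the same threshold at 23 genes (Dharmacon 1 and Qiagen), 790 genes (Dharmacon 2 and Qiagen) and 846 genes (Dharmacon 2 and Dharmacon 1). The count between the 2 lines therefore lay within the span of counts between arrays that received no BRD1 treatment. BRD1-L differed from each of the other 7 arrays at 651 to 1814 genes and BRD1-S at 199 to 956 genes, and in each case the closest array was the Dharmacon 2 control.

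**Figure D2:**
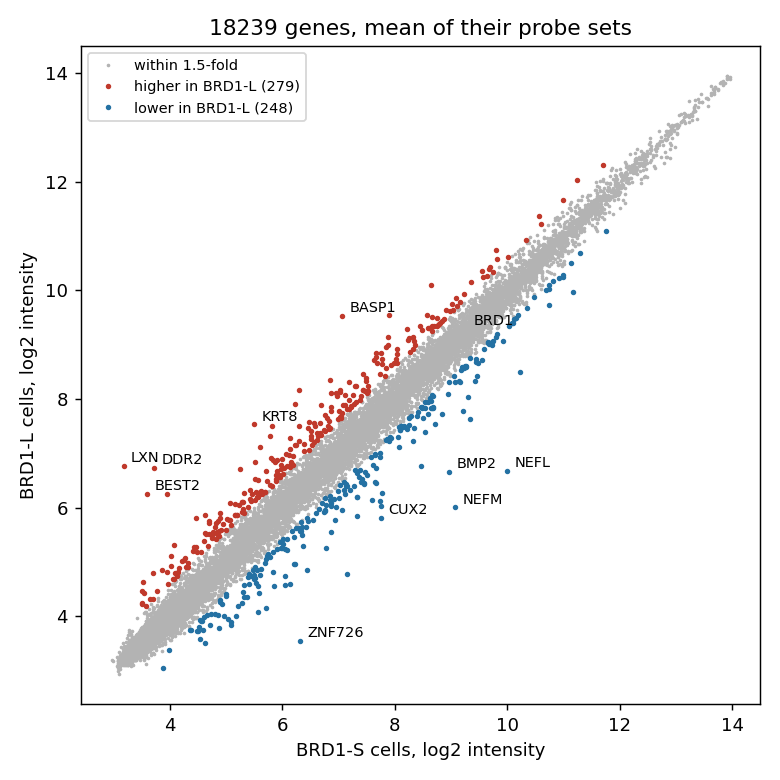
Each point is a gene, with its mean log2 intensity in BRD1-S cells on the x axis and in BRD1-L cells on the y axis. Red points (279) are higher and blue points (248) lower in BRD1-L cells by more than 1.5-fold. LXN and DDR2 lie farthest above the diagonal and NEFL and NEFM farthest below it, while BRD1 lies on it.

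Set beside the range of the other 7 arrays, BRD1-L was more often the line that stood apart. Among the 279 higher genes, BRD1-L was above the range at 251 and BRD1-S below it at 36. Among the 248 lower genes, BRD1-L was below the range at 199 and BRD1-S above it at 60. Of all 18239 genes, BRD1-L was above the range at 3474 and below it at 3270, and BRD1-S at 2111 and 2063. A gene picked for a large difference between the lines is more likely to have a line outside the range, so the counts describe this choice. BRD1-L alone was outside the range at 193 of the higher and 143 of the lower genes, and BRD1-S alone at 9 of the higher and 32 of the lower. Over all genes, BRD1-L alone was outside at 24.0% and BRD1-S alone at 9.87%. Both lines lay on opposite sides of the range at 25 higher and 24 lower genes, and neither left it at 17 higher and 13 lower genes. Of all genes, 1.32% had the lines on opposite sides and 53.1% had neither outside.

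The genes highest in BRD1-L cells included proteins of the cell surface, the cytoskeleton and the vesicle system, and the unusual line differed from gene to gene. LXN, a carboxypeptidase inhibitor, read 6.77 with BRD1-L and 3.18 with BRD1-S, against 5.08, 5.41 and 6.60 at the lowest, median and highest of the other 7 arrays. BRD1-S was well under every other array for LXN, close to the lowest of all values (2.8), so the size of the fold is not given. DDR2, a receptor tyrosine kinase that binds fibrillar collagen, read 6.73 with BRD1-L and 3.72 with BRD1-S, with the other 7 arrays at 4.0, 4.15 and 4.73, so that both lines left the range, BRD1-L by more. BEST2, a chloride channel of epithelia, was at 6.26 with BRD1-L and 3.60 with BRD1-S, and the other 7 arrays lay between 3.42 and 3.83. Here BRD1-S sat inside a narrow and low range and BRD1-L alone was high.

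BASP1, a membrane-bound protein of growing axon tips, was at 9.53 with BRD1-L and 7.06 with BRD1-S, a 5.52-fold difference. The other 7 arrays spread from 6.75 to 8.95, and the high end was the Dharmacon 2 pair at 8.91 and 8.95. CDO1, the enzyme that oxidises cysteine, was at 6.25 with BRD1-L and 3.94 with BRD1-S and between 4.84 and 5.41 elsewhere, so that the lines lay on opposite sides. KRT8, a keratin of simple epithelia with 8 probe sets, was at 7.53 with BRD1-L and 5.50 with BRD1-S, with the other arrays between 4.43 and 5.53. All 8 carry the suffix _x_at, and whether they read KRT8 alone was not tested. ITGA8, an integrin of the developing kidney, was at 8.16 with BRD1-L and 6.29 with BRD1-S and between 6.04 and 7.29 elsewhere.

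For VAMP8 and SPINT2 the BRD1-S array was the one farther from the others. VAMP8, a SNARE protein of endosomes and secretory vesicles, read 7.91 with BRD1-L and 6.23 with BRD1-S, and both were under the other 7 arrays, which began at 8.66. SPINT2, an inhibitor of serine proteases on epithelial surfaces, read 9.54 with BRD1-L, inside the range of 8.91 to 9.95, and 7.90 with BRD1-S. TRIM56 and NMI, which act in the response to interferon, differed by 1.68 and 1.51 on the log2 scale, and APOBEC3B, a cytidine deaminase that edits DNA, by 1.5. For APOBEC3B the Dharmacon 2 pair was again near the BRD1-L value of 8.35, at 7.91 and 8.18, while BRD1-S was at 6.85. The list closed with HSBP1L1 at 1.54, PEX39 at 1.47 and RPL22L1, a ribosomal protein paralog, at 1.47.

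The 2 genes lowest in BRD1-L cells encode neurofilament subunits, the intermediate filaments of axons that HEK293T cells also express. NEFL read 6.67 with BRD1-L and 9.99 with BRD1-S, against 10.02, 10.32 and 10.63 at the lowest, median and highest of the other 7 arrays. NEFM read 6.0 with BRD1-L and 9.07 with BRD1-S, against 9.67, 9.80 and 10.47. The differences were 9.98-fold and 8.39-fold, every probe set of both genes gave them, and BRD1-S was itself under the lowest of the other arrays, slightly for NEFL and by more for NEFM. INA, the intermediate filament protein that assembles with them, differed by -0.11 on the log2 scale, and PRPH and VIM by 0.29 and 0.17.

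ZNF726, a KRAB zinc finger gene, was at 3.55 with BRD1-L and 6.31 with BRD1-S, with the other arrays between 6.09 and 7.15, which left only BRD1-L outside. SNAI2, a repressor of epithelial genes in migrating cells, was at 8.50 with BRD1-L and 10.22 with BRD1-S and between 9.86 and 11.02 elsewhere. FAT3, a giant cadherin, was at 6.12 with BRD1-L and 7.73 with BRD1-S and between 7.59 and 8.07 elsewhere. FGF13, an intracellular regulator of sodium channels, was lower by 1.59 and SLC7A3, a transporter of cationic amino acids, by 1.56 on the log2 scale. For this set the BRD1-S array looked like the others or came close to them.

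For BMP2, FBXL16 and RAB3C, BRD1-S alone left the range of the other 7 arrays, and for CUX2 both lines did, BRD1-L by more. FBXL16 was at 6.76 with BRD1-L and 8.46 with BRD1-S, only just above the other 7 arrays at 6.54 to 8.39. BMP2, a secreted bone morphogenetic protein, was at 6.66 with BRD1-L and 8.96 with BRD1-S. Untreated cells were at 5.97, the Dharmacon 2 pair at 6.13 and 6.45, and the remaining 4 siRNA arrays at 8.07 to 8.68, so that BRD1-L lay within this wide spread and BRD1-S above it. CUX2, a homeodomain factor of upper cortical layers, was at 5.82 with BRD1-L and 7.75 with BRD1-S, on either side of the other arrays at 6.22 to 7.48. RAB3C, a small GTPase of synaptic vesicles, was at 5.25 with BRD1-L and 6.78 with BRD1-S and between 4.60 and 5.90 elsewhere. MID1, a ubiquitin ligase on microtubules with 5 probe sets, was at 7.64 with BRD1-L and 9.33 with BRD1-S, on either side of a range of 8.89 to 9.29. Genes of this kind, with every probe set past the threshold and a level above the median of all values, were 167 higher and 155 lower. Of them, 27 had the lines on opposite sides, 14 of them higher and 13 lower in BRD1-L, beside 1.32% of all genes. Choosing genes for a large difference itself favours opposite sides, so the count describes this choice.

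**Figure D3:**
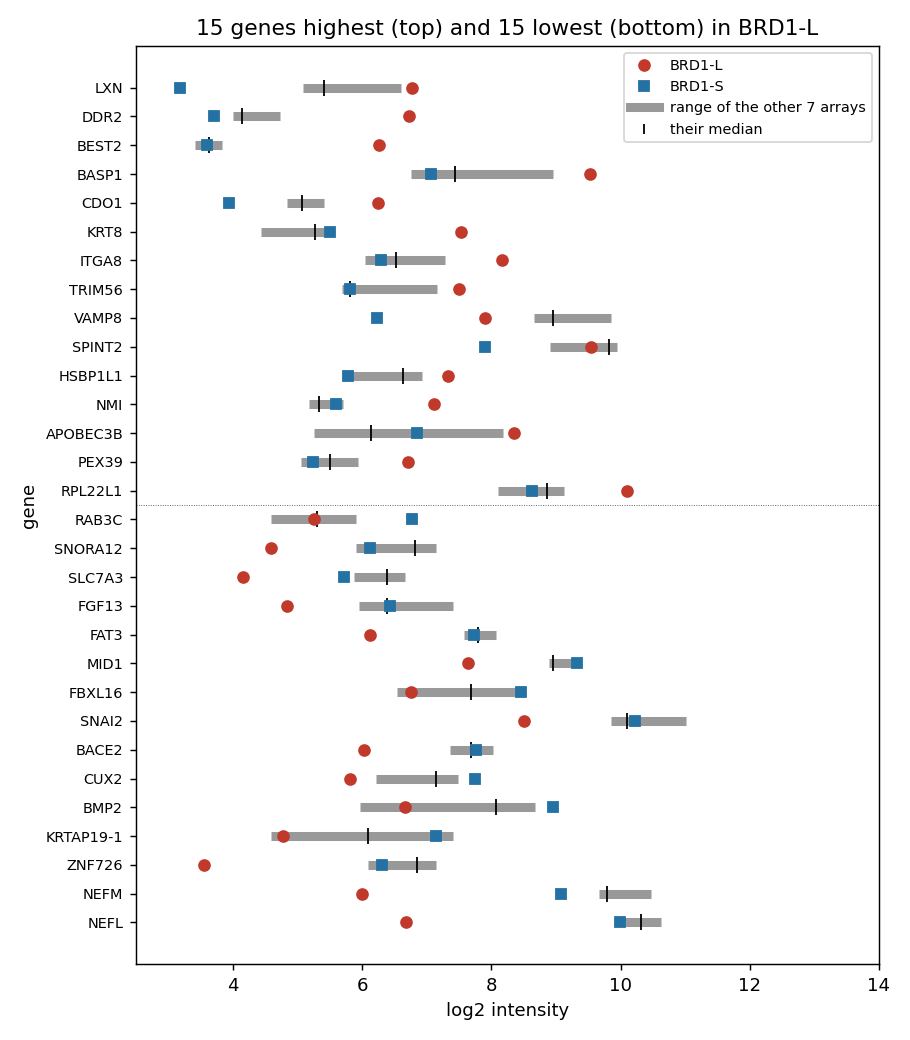
The 15 genes highest in BRD1-L relative to BRD1-S cells are above the dotted line and the 15 lowest below it, with log2 intensity on the x axis. Red circles are BRD1-L, blue squares BRD1-S, grey bars the range of the other 7 arrays and black ticks their median. NEFL (6.67 against 9.99) and ZNF726 (3.55 against 6.31) have BRD1-L far left of the grey bar, while LXN and VAMP8 have BRD1-S far left of it.

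The p53 pathway gave the list with the most members past the threshold in 1 direction. p53 is a transcription factor that is stabilised by DNA damage and other stress and switches on genes for cell cycle arrest, DNA repair and cell death, and in HEK293T cells the SV40 large T antigen binds it. Of 26 measured target genes, 10 were higher and 0 lower by more than 1.5-fold in BRD1-L cells, beside 1.53% and 1.36% of all genes. Of the 26 differences, 24 were above 0, and their median was 0.31 on the log2 scale beside 0.00 over all genes. This list was chosen with earlier results of these arrays known, so its direction is not independent evidence. Relative to the median of the other 7 arrays, the list's median difference was 0.39 for BRD1-L and 0.07 for BRD1-S.

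DDB2 and FAS, both about 2-fold higher in BRD1-L cells, have a sequence close to the p53 consensus element inside the promoter window, and the windows are printed to show where it lies. The windows run from 250 bases before to 50 bases after the transcription start in RefSeq (GRCh38.p14), DDB2 at chr11:47214724-47215023 and FAS at chr10:88991181-88991480, both on the plus strand and both 1 of several windows RefSeq lists for the gene. Capitals mark the element, 2 adjoining half-sites of the p53 consensus with its fixed core bases intact.
DDB2: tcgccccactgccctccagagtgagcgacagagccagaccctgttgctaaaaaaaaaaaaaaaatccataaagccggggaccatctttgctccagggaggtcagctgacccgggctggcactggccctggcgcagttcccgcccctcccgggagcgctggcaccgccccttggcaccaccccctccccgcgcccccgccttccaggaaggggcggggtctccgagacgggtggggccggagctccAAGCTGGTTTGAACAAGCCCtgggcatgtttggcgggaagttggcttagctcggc
FAS: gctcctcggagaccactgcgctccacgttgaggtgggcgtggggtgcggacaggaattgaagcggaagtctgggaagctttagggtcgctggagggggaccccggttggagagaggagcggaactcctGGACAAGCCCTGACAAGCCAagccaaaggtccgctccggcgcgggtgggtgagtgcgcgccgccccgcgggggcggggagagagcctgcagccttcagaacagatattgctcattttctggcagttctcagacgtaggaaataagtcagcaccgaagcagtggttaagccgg
The DDB2 element has 1 mismatch to the consensus and spans window bases 246 to 265, across the start itself, and the FAS element has 2 mismatches and spans bases 129 to 148. Allowing at most 2 mismatches on either strand and no gap between the half-sites, the element occurred in 0.285% of 35116 promoter windows. Counted by gene, it was in 1 or more windows of 98 of 27305 genes (0.359%) and of 4 of the 21 list genes with a window, namely AEN, DDB2, FAS and MDM2. A match is a description of the letters and does not show binding. The list was made of p53 targets, so its share beside that of all genes was set by that choice and tests nothing.

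DDB2, a sensor of ultraviolet DNA damage, read 7.86 with BRD1-L and 6.86 with BRD1-S, against 6.24, 6.76 and 7.54 at the lowest, median and highest of the other 7 arrays. FAS, a death receptor, read 7.56 with BRD1-L and 6.56 with BRD1-S, against 5.89, 6.37 and 7.57. MDM2, the ubiquitin ligase that holds p53 down and the third gene with an element, differed by 0.18 on the log2 scale, and AEN, an apoptosis-enhancing nuclease and the fourth, by 0.74. So the members with an element included large and small differences.

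CDKN1A, the inhibitor p21 that stops the cell cycle, read 9.34 with BRD1-L and 8.45 with BRD1-S, against 6.41, 7.04 and 9.18 elsewhere. GDF15, a secreted stress cytokine, read 5.86 with BRD1-L and 4.62 with BRD1-S, against 4.02, 4.38 and 6.22. TP53I3, an oxidoreductase, read 7.89 with BRD1-L and 6.69 with BRD1-S, against 6.03, 6.46 and 7.56. PHLDA3, an inhibitor of AKT signalling, read 8.06 with BRD1-L and 6.97 with BRD1-S, against 6.20, 6.41 and 7.84. BRD1-L thus topped the range for 3 of these 4, and for GDF15 it did not. The highest of the other arrays was in each case 1 of the Dharmacon 2 pair.

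The same genes separated the Dharmacon 2 pair from the Qiagen and Dharmacon 1 pairs. Both Dharmacon 2 arrays were above all 4 arrays of the other pairs at 19 of the 26 targets. The median gap was 0.48 on the log2 scale, beside -0.03 over all genes. The mean of the Dharmacon 2 pair was more than 1.5-fold above that of the 4 at 10 targets, beside 1.46% of all genes. BRD1-L was above both Dharmacon 2 arrays at 11 of the 26 genes, and BRD1-S was below both at 22. These 2 counts were not taken over all genes, so they have no background to be read against. Over all genes higher in BRD1-L, the Dharmacon 2 pair was above the 4 at 120 of 279 (43.0%), beside 11.7% of all genes, and over the genes lower in BRD1-L it was below the 4 at 80 of 248 (32.3%), beside 17.1%. What the Dharmacon 2 cultures share with the BRD1-L culture is not given by the labels, and its part in the difference was not tested.

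**Figure D4:**
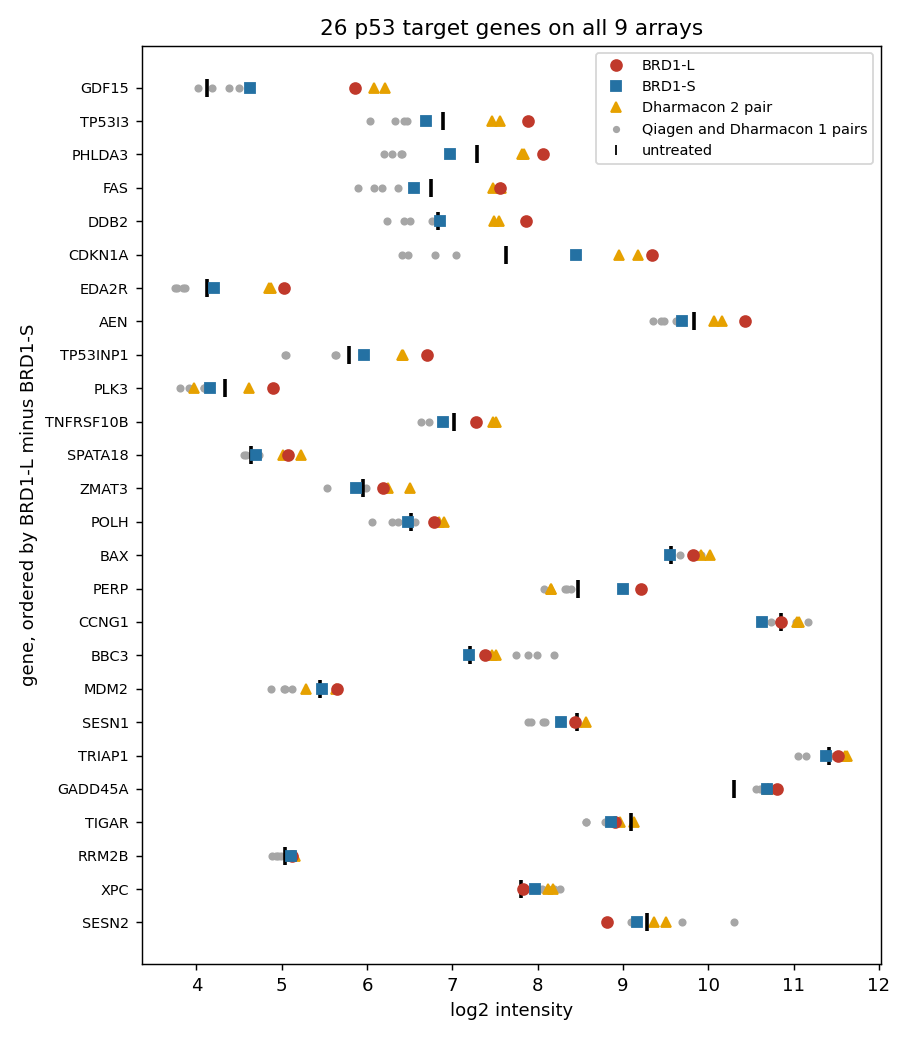
Log2 intensities of the 26 measured p53 target genes are plotted on the x axis, 1 gene per row, ordered by BRD1-L minus BRD1-S. Red circles are BRD1-L, blue squares BRD1-S, yellow triangles the Dharmacon 2 pair, grey dots the Qiagen and Dharmacon 1 pairs and black ticks untreated cells. In the upper rows BRD1-L and the triangles lie to the right of BRD1-S and the grey dots, as for CDKN1A at 9.34 with BRD1-L and 8.45 with BRD1-S.

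Some genes that drive entry into the cell cycle were lower in BRD1-L cells. D-type cyclins activate CDK4 and CDK6 to inactivate RB1 at the start of the cycle. CCND1 read 5.55 with BRD1-L and 6.86 with BRD1-S, against 7.15, 7.40 and 7.90 at the lowest, median and highest of the other 7 arrays, and CCND2 read 7.22 with BRD1-L and 8.31 with BRD1-S, against 8.44, 8.93 and 9.24. Both lines were under every other array for both cyclins, and BRD1-L was the lower. CDK6 differed by -0.65, while CCND3 and CDK4 differed by -0.07 and -0.08. The inhibitor CDKN1C differed by -0.62. In the list of 14 genes, these 4 were lower past the threshold (CCND1, CCND2, CDK6 and CDKN1C), CDKN1A alone was higher and the median was -0.01. Of all genes, 1.36% were lower and 1.53% higher past it. Of 41 genes of DNA replication and 35 of mitosis, 0 were past 1.5-fold either way, with medians of 0.02 and 0.12.

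Genes of epithelial structure were higher in BRD1-L cells at several points. Of 25 simple keratins and junction genes, 4 were higher and 0 lower, beside 1.53% and 1.36% of all genes, with a median of 0.11. After KRT8 these were EPPK1, a linker of keratin filaments, at 6.91 with BRD1-L and 5.80 with BRD1-S, OCLN, a tight junction protein, at 7.16 with BRD1-L and 6.52 with BRD1-S, and EPCAM, an adhesion molecule, at 5.08 with BRD1-L and 4.26 with BRD1-S. EPCAM stayed within the other 7 arrays (4.04 to 5.23) in both lines and below the median of all values. KRT18, the partner of KRT8, was at 10.01 with BRD1-L and 9.60 with BRD1-S, a difference of 0.42 that lay above the other arrays but under the threshold. CDH1 differed by 0.23 at a level below the median of all values. In the list of 27 mesenchymal genes, 0 were higher and 3 lower, namely SNAI2, TWIST2 at -0.67 and CNN2 at -0.60.

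Among 33 matrix proteases and their inhibitors, 5 were higher and 1 lower, beside 1.53% and 1.36% of all genes, with a median of 0.06. Besides LXN and SPINT2, SERPINB1, an inhibitor of neutrophil proteases, was at 9.30 with BRD1-L and 8.22 with BRD1-S, above an elsewhere highest value of 8.78. SERPINF1 was at 8.84 with BRD1-L and 8.04 with BRD1-S and below all other arrays in both lines. ADAMTS1, a protease that cuts proteoglycans, was the lower one, at 7.77 with BRD1-L and 9.22 with BRD1-S, with the other arrays between 8.72 and 9.59. Of 31 annexins, S100 proteins and galectins, 3 were higher and 0 lower, beside the same shares of all genes. In this list 13 differences were above 0 and 17 below, and the median was 0.00. The 3 were LGALS3 and LGALS1, galectins that bind sugars on the cell surface, by 1.10 and 0.60, and ANXA1, a phospholipid-binding annexin, by 0.66. For ANXA1, at 7.41 with BRD1-L and 6.75 with BRD1-S, both lines were above the other 7 arrays, which reached 5.41, and the same held for LGALS1.

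Interferon-stimulated genes were mixed. Of 39 genes, 5 were higher and 1 lower, beside 1.53% and 1.36% of all genes, with a median of 0.02. IFI35, a binding partner of NMI, was at 5.91 with BRD1-L and 4.89 with BRD1-S, and IFIT5, an RNA-binding antiviral protein, at 8.67 with BRD1-L and 7.69 with BRD1-S. The other 7 arrays for IFIT5 lay between 7.53 and 7.74, so only BRD1-L left that narrow range. ISG15, a ubiquitin-like protein, was the lower one, at 5.46 with BRD1-L and 6.20 with BRD1-S. It lies in a stretch of chromosome 1, described below, where the median difference of neighbouring genes was -0.41.

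Signalling genes differed in single members. In the list of 42 BMP and TGF-beta genes, 3 were higher and 2 lower, with a median of 0.00. Of all genes, 1.53% were higher and 1.36% lower, and the same shares stand beside the lists that follow. ID3, an inhibitor of basic helix-loop-helix factors and a target of BMP signals, was at 9.96 with BRD1-L and 11.17 with BRD1-S, below the lowest (10.36) of the other arrays with BRD1-L and above their highest with BRD1-S, while ID1 differed by -0.49. Among 37 immediate early and ERK feedback genes, 4 were higher and 2 lower, with ETV5, an ETS factor, at 5.31 with BRD1-L and 4.07 with BRD1-S, KLF4 higher by 0.97 and SPRY1 lower at -0.66. ETV5 has 4 probe sets that differed by 0.40 to 2.13, so they did not give 1 size. HOX genes set position along the body axis. Of 29 measured, 23 differences were above 0 with a median of 0.21, and HOXB8 was past the threshold, at 9.34 with BRD1-L and 8.65 with BRD1-S.

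The partners of BRD1 itself were looked at next. Of 17 subunits of the BRPF and JADE acetyltransferase complexes, 0 were past 1.5-fold, beside 2.89% of all genes, a share near the background that says nothing about a list this short. The differences ran from -0.35 to 0.40 with a median of 0.03. BRD1-L was above the range of the other 7 arrays at 6 subunits and below it at 5. Of all 18239 genes, it was above the range at 3474 and below it at 3270. KAT6B was at 8.16 with BRD1-L and 7.76 with BRD1-S, and MEAF6 at 9.03 with BRD1-L and 8.66 with BRD1-S. MEAF6 differed by 0.38 and lies in a run of neighbouring genes on chromosome 1, described next, whose median difference was 0.33. Partners known from pull-down of the tagged isoforms were listed too. None of the 10 measured partners of both isoforms and none of the 15 of BRD1-S alone was past the threshold. Among the 7 of BRD1-L alone, RPL22L1 was the exception, at 10.10 with BRD1-L and 8.63 with BRD1-S against 8.10, 8.86 and 9.12 elsewhere. Of 28 sterol and fatty acid genes, 23 differences were below 0 with a median of -0.17, and 1 gene was higher (TM7SF2) and 1 lower (ELOVL6) by more than 1.5-fold. Without the 5 of them that lie in the chromosome runs described next, ELOVL6 among them, the median was -0.09 and 0 were lower.

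Genes that differed between the lines were not spread evenly along the chromosomes. For this the 9402 genes whose brighter line was above the median of all values (5.47) were placed in chromosome order with RefSeq (GRCh38.p14), and a running median over 41 neighbouring genes was taken. Where the running median stayed beyond 0.15 on the log2 scale in 1 direction for at least 40 genes in a row, the stretch was called a run. There were 11 runs, 6 lower and 5 higher, with 1101 genes or 11.7% of those placed. The same procedure found 0 runs in each of the 3 differences between control siRNA arrays and 0 runs in BRD1-S minus the median of the other 7 arrays. BRD1-L minus that median gave 11 runs with 1061 genes.

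On chromosome 1 a lower run was followed by a higher one. From SAMD11 to EPB41, 184 genes had a median difference of -0.41, with 179 below 0, and 34 of them were lower by more than 1.5-fold and 0 higher. The median of these genes was -0.39 for BRD1-L and 0.01 for BRD1-S relative to the median of the other 7 arrays, and each of those 7 arrays taken by itself lay between -0.02 and 0.01. This run holds ID3, and also NMNAT1, which makes NAD in the nucleus, at 5.29 with BRD1-L and 6.37 with BRD1-S. From TXLNA to TXNDC12, 134 genes had a median of 0.33, with 126 above 0, 23 higher by more than 1.5-fold and 0 lower.

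Chromosome 21 was lower over its whole length, from RBM11 to PRMT2. Of 105 genes, 96 were below 0, the median was -0.33, 17 were lower by more than 1.5-fold and 2 higher. BACE2, an aspartyl protease that cuts the amyloid precursor protein, was at 6.03 with BRD1-L and 7.76 with BRD1-S, with the other arrays between 7.36 and 8.02. KRTAP19-1, a keratin-associated protein gene, was at 4.78 with BRD1-L and 7.15 with BRD1-S, but the other arrays spread from 4.59 to 7.41 and neither line left that range. ADAMTS1, described above, lies in the same run.

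On chromosome 4, from CASP6 to WWC2, 111 genes had a median of -0.45, with 105 below 0 and 31 lower by more than 1.5-fold. TMEM192, a lysosomal membrane protein, was at 4.96 with BRD1-L and 6.20 with BRD1-S, and NUDT6, a gene antisense to FGF2, was at 6.47 with BRD1-L and 7.65 with BRD1-S, against 7.60 to 7.66 on the other 7 arrays. On chromosome 5, from SPDL1 to TRIM52, 63 genes had a median of -0.32 with 62 of them below 0. STC2, a secreted regulator of calcium and phosphate, was at 7.73 with BRD1-L and 8.59 with BRD1-S in that stretch. The run on chromosome 7 from IFT56 to DYNC2I1 had 65 genes at a median of -0.23, and it holds EN2, a homeobox gene of the midbrain, which differed by -1.26.

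The higher runs were on chromosomes 15, 16 and 18 besides chromosome 1. From CIAO2A to TARS3 on chromosome 15, 178 genes had a median of 0.27, 162 were above 0 and 17 were higher by more than 1.5-fold. LOXL1, which crosslinks elastin, was at 7.28 with BRD1-L and 6.14 with BRD1-S and between 5.89 and 6.28 elsewhere. Chromosome 16 had a run at each end, 89 genes from POLR3K to ZNF200 with a median of 0.27 and 83 genes from ATXN1L to DRC4 with a median of 0.28. KLHL36, a substrate adaptor of ubiquitin ligases, was at 7.49 with BRD1-L and 6.3 with BRD1-S in the second of these, and FBXL16, at -1.70, went the other way in the first.

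Some of the runs were weaker or lay on the other side. On chromosome 3, 44 genes from TRNT1 to SH3BP5 had a median of -0.18, not far beyond the limit for a run. Each of the other 7 arrays taken by itself lay there between -0.08 and 0.06 relative to their median. In the run from POLR3K to ZNF200 these arrays lay between -0.10 and 0.09, and the spread was narrower in the remaining runs. On chromosome 18, 45 genes from ROCK1P1 to MIB1 had a median of 0.21, but relative to the other 7 arrays their median was -0.02 for BRD1-L and -0.19 for BRD1-S. In all other runs, BRD1-L was the line that departed from the other 7 arrays, by 0.18 to 0.45 on the log2 scale in the direction of the run, and BRD1-S stayed within 0.05 of their median.

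The runs held a large share of the genes past the threshold. Of the placed genes, 241 (2.56%) were higher and 207 (2.2%) lower by more than 1.5-fold. In the higher runs 59 of 529 genes (11.2%) were higher, and in the lower runs 95 of 572 (16.6%) were lower, while outside the runs the shares were 2.17% and 1.26%. The runs were found from these same differences, so the shares describe them and test nothing. Of the 26 p53 targets, 3 were placed in runs, namely AEN, SESN2 and XPC. SESN2 and XPC were the only 2 members of the list below 0. Without these 3 the list had 9 higher and 0 lower genes and a median of 0.32. Only genes with the brighter line above the median of all values were placed, a condition 22 of the 26 targets met. A dimmer gene within the stretch of a run was therefore not counted in it, here and in the other counts without runs. DNA was not measured on these arrays, and what sets the runs was not tested.

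**Figure D5:**
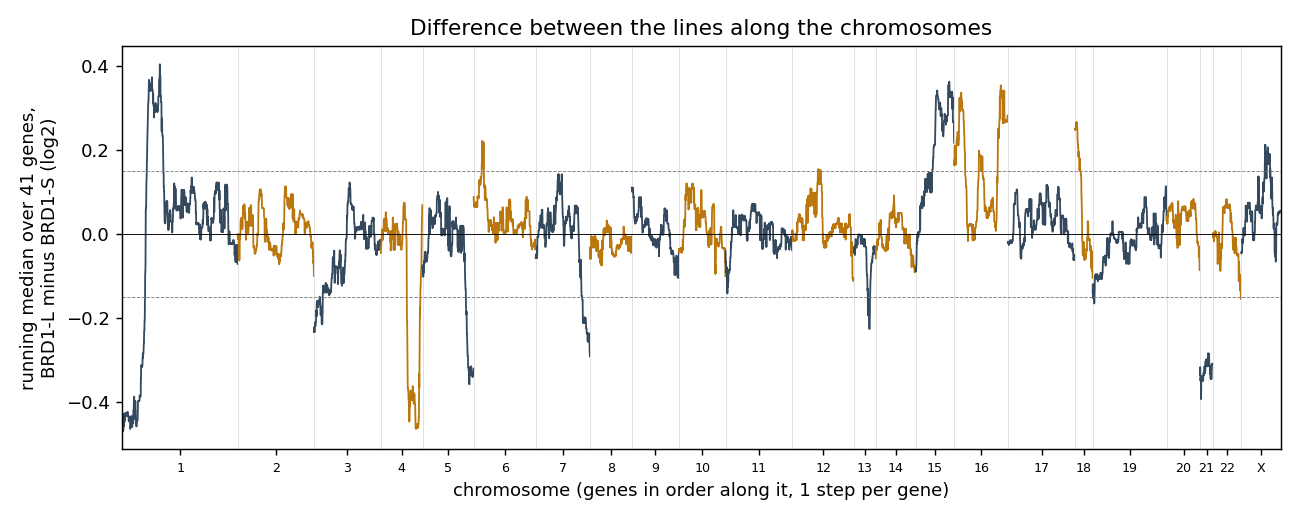
The running median over 41 neighbouring genes of BRD1-L minus BRD1-S (log2) is drawn for chromosomes 1 to 22 and X, with genes in order along the x axis and chromosomes in alternating colours. Dashed lines mark 0.15 and -0.15. The line drops below -0.40 at the start of chromosome 1 and on chromosome 4, stays below -0.15 over all of chromosome 21, and lies above 0.15 on the later part of chromosome 15.

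Markers of other cell types were low in both lines. Of 26 markers of leukocytes, endothelial cells, fibroblasts and hepatocytes, 25 were below the median of all values in both lines and the differences between the lines ran from -0.16 to 0.14. EGFL7 was the exception, at 6.10 with BRD1-L and 6.01 with BRD1-S. Of 9 markers of HEK293T, NEFL and NEFM were lower and TUBB3, a neuronal tubulin, was higher by 0.73, while VIM was at 13.50 with BRD1-L and 13.33 with BRD1-S and UCHL1 at 11.59 with BRD1-L and 11.44 with BRD1-S. TUBB3 lies in 1 of the chromosome runs, and without genes in runs 0 of these markers were higher by more than 1.5-fold. The study's housekeeping genes that were measured differed by -0.08 to 0.21, with ACTB at 0.01, TBP at -0.01 and GAPDH at 0.06.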

How the data were processed

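Total RNA was hybridised to Affymetrix U219 arrays, which carry 49386 probe sets. The study describes scaling probe intensities to each array's mean, and the deposited values are on the log2 scale. The study does not say that this was the only step behind the deposited values. On the BRD1-L and BRD1-S arrays, 1654 probe sets had identical values. How probes were summarised and background removed is not given in the sources used here. The 45259 probe sets annotated to exactly 1 gene were averaged per gene with Python 3.11.15, pandas 2.3.3 and numpy 2.4.6, giving 18239 genes, and those with several symbols (1327) or none (2800) were left out. Symbols come from the platform annotation matched to RefSeq by gene ID. Genes count as higher or lower beyond 1.5-fold, the study's threshold, with no test, since each line has 1 array. The counting and run steps were tested on simulated data. Array medians lie between 5.41 and 5.53. No detection calls were used, so depth is judged by level alone, and the number of arrays limits the precision.

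The gene lists and members were chosen with earlier results of these arrays known. Named genes are BRD1 and the housekeeping genes, the 15 highest and 15 lowest with every probe set past 1.5-fold and the brighter line above the median of all values, the 4 most different members of each list, the 10 most different genes of that kind with the lines on opposite sides of the other 7 arrays, all protein partners, and 3 genes each way on a chromosome described. Other genes named were chosen after their values were seen, namely DDB2, AEN, MDM2, SESN2, XPC, CCND3, CDK4, KRT18, CDH1 and SERPINF1. The same holds for ISG15, INA, PRPH, VIM, UCHL1, ID1 and the first and last genes of runs. The runs were noticed in the data.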

Additional observations from a re-analysis of the deposited data

How the results depend on the processing

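The counts of 279 higher and 248 lower genes in BRD1-L than in BRD1-S cells became 250 and 282 with each array centred on its median, 267 and 258 after quantile normalization, 334 and 310 with the median over probe sets, and 242 and 207 without genes at or below the median of all values. Both moved by more than 1.5 times with the brightest probe set of each gene (424 and 408), with any probe set past 1.5-fold (626 and 620), and at 2-fold (51 and 55). With every probe set past 1.5-fold they were 183 and 174, and the higher count moved by more than 1.5 times. Leaving out the genes placed in runs of neighbours, an alternative chosen after seeing the data, gave 218 and 146. The lower count moved by more than 1.5 times. Genes with the brighter line at or below the median of all values were not placed, so those within the same stretches stayed in. The BRD1 difference of 0.03 became 0.00 and 0.02 with centring and quantile normalization, and -0.089 with the brightest or the median probe set, so its sign has no meaning at this size. Of the 527 genes, 497 had at least 1 line outside the range of the other 7 arrays, 497 to 504 when 1 of those arrays was left out, 496 with centring and 493 with quantile normalization. All 187 named genes past 1.5-fold kept their direction under centring, quantile normalization and the brightest or median probe set, and 180 to 186 of them were still past it. The runs numbered 10 with windows of 21 or 81 genes, chosen after seeing the data, and 10 after quantile normalization. No paired analysis was possible because each line has 1 array and no replicate number.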

Other observations

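Among 44 neuronal genes, 5 were higher and 3 lower by more than 1.5-fold, beside 1.53% and 1.36% of all genes. ENO2, a neuronal enolase, was at 8.74 with BRD1-L and 7.77 with BRD1-S, both above the other 7 arrays, and CRMP1, a protein of axon guidance, was at 4.19 with BRD1-L and 5.21 with BRD1-S. Of 34 amino acid transporters and 31 insulin and IGF genes, 0 were higher and 3 lower in each list, and of 38 receptor tyrosine kinases, 3 were higher and 0 lower. In some lists no member was past the threshold. Of 53 replication-dependent histone genes, 67 cytosolic ribosomal protein genes and 63 genes of oxidative phosphorylation, 0 were past it, with medians of -0.06, -0.02 and -0.02 on the log2 scale. Among 20 heat shock chaperones, 16 were below 0 and 1 was lower by more than 1.5-fold. Lysosomal genes had a median of 0.12 over 46 members, with 2 higher and 2 lower. NQO1, a quinone reductase, was higher by 1.12, and ALDH1A2, which makes retinoic acid, was at 8.73 with BRD1-L and 7.62 with BRD1-S, on either side of the other arrays at 7.84 to 8.68.

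Probe sets left out of the gene counts were lower more often than higher. Of 1327 with several symbols, 17 were higher and 31 lower by more than 1.5-fold (3.62%), and of 2800 with no symbol, 21 were higher and 49 lower (2.5%), beside 938 higher and 894 lower (4.05%) of the probe sets with 1 symbol.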
